A study of Mus musculus with 8 samples.

Results

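The cartilage and tendon lineage genes described here are 10 genes, Col2a1, Col11a1, Acan, Sox9, Comp, Matn2, Matn4, Scx, Tnmd and Mkx, out of the 31053 genes counted in the series. They were chosen by name as markers of chondrogenic and tenogenic differentiation, and with their counts in these same libraries already known, so their difference between the cell states, and its place against the thresholds used for all genes, are given as a description and with no p-value. Their counts come from fibro/adipogenic progenitors (FAPs), interstitial mesenchymal cells of skeletal muscle that can turn into fat cells or matrix-producing fibroblasts. The cells came from hind limb muscles of mdx mice (C57BL/10ScSn-Dmdmdx/J, 45 days old), which lack dystrophin through a mutation of the Dmd gene and served as a model of Duchenne muscular dystrophy. Cells with high and low surface SCA-1 were sorted apart and grown for 5 days in growth medium (GM), which gave 4 libraries of SCA1-High-FAPs (the High libraries below) and 4 of SCA1-Low-FAPs (the Low libraries). Both states shared strain, age, tissue and medium, there was no wild-type group and no induced differentiation, and 4 mice were used according to the series description. The question was which cartilage and tendon genes these cells carried at all, and at what level in each state.

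Cartilage cells are specified by the transcription factor SOX9, which works with SOX5 and SOX6 to switch on the genes of the cartilage matrix. That matrix is built of type II collagen fibrils (Col2a1) seeded by type XI collagen (Col11a1) and IX collagen, filled with the proteoglycan aggrecan (Acan) and bridged by COMP and the matrilins. Tendon cells are specified by scleraxis (Scx) and mohawk (Mkx), 2 transcription factors, and mature tendon cells carry the membrane protein tenomodulin (Tnmd). COMP is abundant in cartilage and in tendon, and Sox9 is also active in progenitors that are not cartilage.

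The libraries held 1880561 to 3985656 reads on genes. They are 3′ libraries, in which a transcript gives reads near its 3′ end whatever its length, so levels are in CPM (counts scaled to a common library size by the TMM method) and were not divided by gene length. A gene with 3 counts stood at 0.788 to 1.62 CPM, and this floor covers counting error only. Ly6a, the gene of SCA-1, was higher in the cells sorted as SCA1-Low after culture, with 1082 ± 58.2 CPM (SD, n = 4) against 707 ± 183 CPM (SD, n = 4) in those sorted as SCA1-High (log2 fold change 0.61 ± 0.17 (SE), adjusted p = 0.0341, edgeR), which is opposite to the sorting label. SCA1-Low-FAPs replicate 3 stood closer to SCA1-High-FAPs than the other Low libraries did for several of the genes below, and the differences of the 6 fitted lineage genes are therefore also given without it. It was picked after this was seen. For those genes a larger difference without it follows from that choice and is no result. The share of reads that did not align to a unique position was 37.5% to 39.7% in the High libraries and 40.8% to 43.3% in the Low libraries, with no overlap, and its part in the differences was not tested. In the marker check, all 7 FAP markers had counts in both states (6912 to 10633 CPM summed). Most of this sum was Col1a1, which fibroblasts in general also express (7510 ± 1513 CPM in the High and 6542 ± 1424 CPM in the Low libraries, SD, n = 4). Pdgfra stood at 221 ± 51.9 and 167 ± 14.1 CPM. The myogenic genes Pax7, Myod1, Myf5 and Myog and the endothelial genes Emcn and Cldn5 had 0 counts in all 8 libraries. So did the leucocyte genes Adgre1, Itgam, Tyrobp and Cd52, and the glial gene Foxd3. Other genes of these lists had counts, and the sums are given below.

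The levels of the lineage genes ranged widely, from Sox9 at the top to Acan at 0. Together they held 0.0558% to 0.0747% of the counts in SCA1-High-FAPs and 0.0383% to 0.0607% in SCA1-Low-FAPs. Sox9 alone made up 52.7% to 55.2% of these counts in the High libraries and 61.2% to 68.9% in the Low libraries. By mean CPM over the 8 libraries the order was Sox9, Matn2, Comp, Col11a1, Tnmd, Col2a1, Matn4, Mkx, Scx and Acan. Sox9 ranked 463 of the 10181 genes that passed the filter on low counts, Matn2 ranked 1887, Comp 2983, Col11a1 4038, Tnmd 7219 and Col2a1 9774. Matn4, Mkx, Scx and Acan did not pass that filter. Neighbours in this order were not always apart: in SCA1-Low-FAPs, Matn2 (50.7 ± 33.8 CPM) and Comp (34.7 ± 8.85 CPM) lay within their SDs of each other, and so did Tnmd and Col2a1, and Mkx and Scx. The order of the means also differed between the states. For instance, Col11a1 (58.6 ± 11.8 CPM) stood above Matn2 and Comp in SCA1-Low-FAPs. In SCA1-High-FAPs, Matn4 (9.34 ± 9.32 CPM) and Mkx (1.18 ± 0.465 CPM) stood above Col2a1 (0.726 ± 1.45 CPM).

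**Figure D1:**
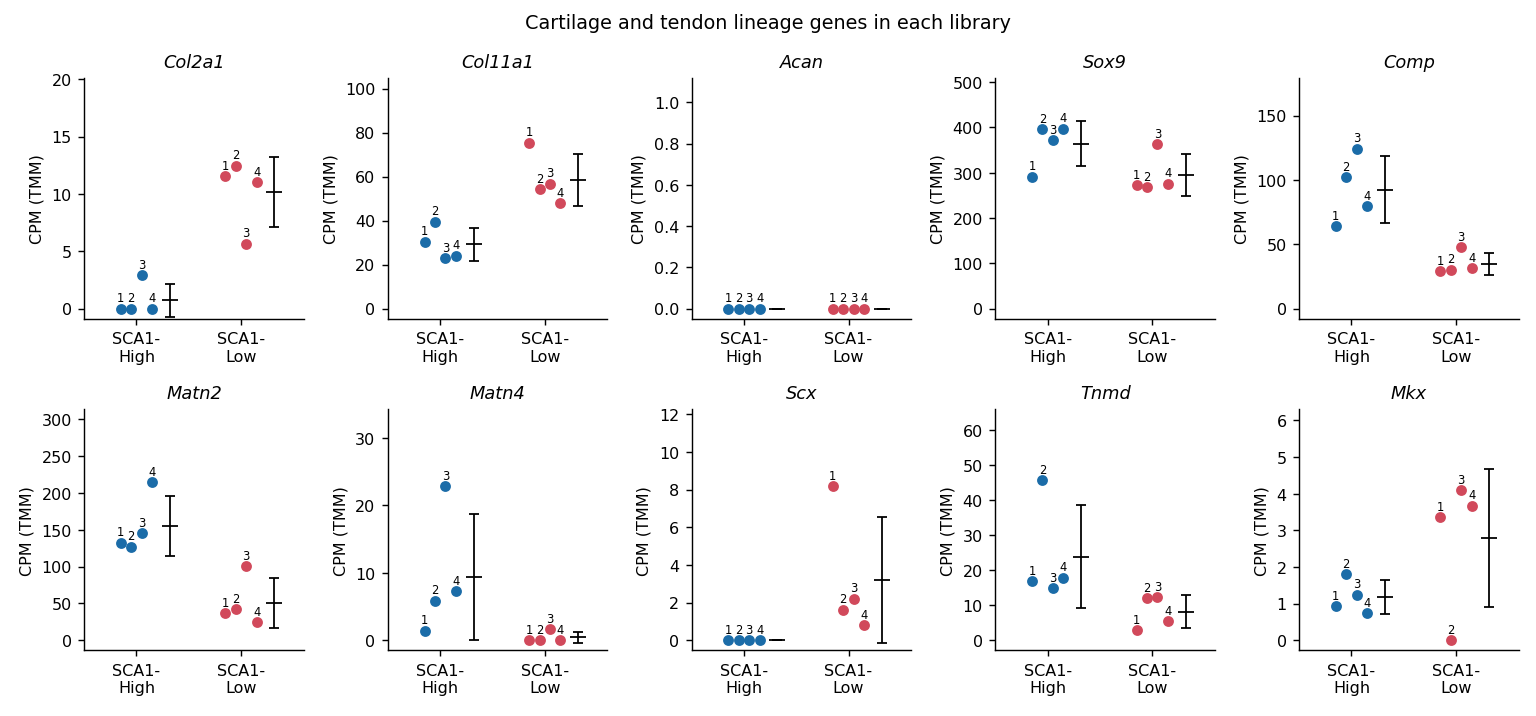
Each panel plots 1 gene, with CPM (TMM-scaled) on the vertical axis from 0 and 1 point per library, numbered by replicate, for SCA1-High-FAPs (blue) and SCA1-Low-FAPs (red). Black bars are the mean ± SD of 4 libraries. Col2a1, Col11a1 and Scx lie higher in every Low library than in any High library, Comp, Matn2 and Tnmd lie lower, and Acan is at 0 throughout.

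The genes differed between the states in both directions. Of the 6 genes that passed the filter, 4 were past the thresholds of the edgeR fit over all genes (adjusted p under 0.05 and log2 fold change beyond 0.5), beside 7.68% of all 10181 genes tested. Of these, 2 were higher in SCA1-Low-FAPs (Col2a1 and Col11a1), where 3.32% of all tested genes were, and 2 were higher in SCA1-High-FAPs (Comp and Matn2), where 4.36% of all tested genes were. The CPM ranges of the states did not overlap for 5 of the 6, beside 14.1% of all tested genes. Nothing can be read from these shares, because the genes were chosen with this contrast known and the low ones passed the filter only where they had counts. The median log2 fold change of the 6, written throughout as SCA1-Low-FAPs minus SCA1-High-FAPs, was -0.86, beside 0.0003 for all tested genes. In bulk RNA, fewer cells that express a gene and less RNA per cell cannot be told apart.

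Sox9, the transcription factor at the head of the cartilage programme, was the most abundant of the set. Its CPM in the SCA1-High-FAPs libraries, in the order of replicates 1 to 4, was 292, 396, 373 and 397, and in SCA1-Low-FAPs it was 273, 268, 364 and 276. The states overlapped, since High replicate 1 and Low replicate 3 each lay in the range of the other state. The log2 fold change was -0.31 ± 0.15 (SE), it was not past the thresholds, and without Low replicate 3 it was -0.44 ± 0.16 (SE). Sox9 was also the steadiest of the 6 between replicates, with a biological coefficient of variation (BCV) lower than that of all but 8.41% of the tested genes. The gene lies on chromosome 11 (GRCm38, chr11:112782224-112787760, plus strand).

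Col2a1, which encodes the chain of type II collagen and is the defining matrix gene of cartilage, was low and was seen mainly in SCA1-Low-FAPs. Its counts were 0, 0, 7 and 0 in SCA1-High-FAPs and 24, 23, 18 and 42 in SCA1-Low-FAPs. Every Low library was thus above every High library, and 3 of the High libraries had none. The mean was 0.726 ± 1.45 CPM (SD, n = 4) over the High libraries and 10.2 ± 3.06 CPM (SD, n = 4) over the Low libraries. The fitted log2 fold change was 3.70 ± 0.88 (SE), or 13.0-fold. Without Low replicate 3 it was 3.88 ± 0.95 (SE). It passed the filter only through the Low libraries, so that its place beyond the thresholds is no more than a description. Without High replicate 3, the one High library with Col2a1 counts, SCA1-Low-FAPs was at least 23.2-fold higher, against a floor of 3 counts over the remaining High libraries. Without Low replicate 1 or Low replicate 4 the gene was no longer past the thresholds, although its log2 fold change was 3.64 in each case. Even in SCA1-Low-FAPs the level was small, with Sox9 at 295 ± 46.1 CPM (SD, n = 4) in the same libraries. Col2a1 lies at chr15:97975602-98004695 on the minus strand.

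Col11a1, the type XI collagen chain that assembles with type II collagen in cartilage and with type V collagen elsewhere, was also higher in SCA1-Low-FAPs. Its CPM was 30.4, 39.5, 22.8 and 24.1 in SCA1-High-FAPs and 75.5, 54.2, 56.8 and 48.1 in SCA1-Low-FAPs. The lowest Low library was above the highest High library. The log2 fold change was 1.00 ± 0.24 (SE), or 2.00-fold, and it was 1.01 ± 0.27 (SE) without Low replicate 3. Without Low replicate 1, the highest library, it was 0.86 ± 0.26 (SE) and no longer past the thresholds. Low replicate 3 was the lowest Low library for Col2a1 and the second highest for Col11a1. Col11a1 lies at chr3:114030540-114220718 on the plus strand.

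Aggrecan, the proteoglycan that gives cartilage its resistance to compression, was not detected. Acan (chr7:79053483-79115099, plus strand) had 0 counts in all 8 libraries, among 20481797 reads on genes, which allows a level of up to 0.147 CPM over the libraries combined. No fold change was computed.

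The bridging proteins of the matrix went the other way. Comp, which encodes the pentameric cartilage oligomeric matrix protein, stood at 64.1, 102, 124 and 79.8 CPM in the High libraries and at 29.3, 30.3, 47.9 and 31.2 CPM in the Low libraries. All High libraries were above all Low libraries. The log2 fold change was -1.41 ± 0.24 (SE), or 2.65-fold lower in SCA1-Low-FAPs, and ranged from -1.62 to -1.23 when each library was left out in turn, past the thresholds each time. Low replicate 3 was the highest Low library, and without it the value was -1.62 ± 0.25 (SE). Comp lies at chr8:70373558-70382066 on the plus strand.

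Matn2 encodes matrilin-2, a filament-forming adaptor protein found in many connective tissues as well as in cartilage. It stood at 132, 127, 146 and 215 CPM in the High libraries and at 36.5, 41.7, 100.3 and 24.4 CPM in the Low libraries. The states did not overlap, but Low replicate 3 lay nearer to the High libraries than to the other Low ones. The log2 fold change was -1.61 ± 0.41 (SE), or 3.04-fold lower in SCA1-Low-FAPs, and -2.21 ± 0.25 (SE) without Low replicate 3. Every alternative kept the direction, but the gene was past the thresholds in only 6 of the 14 alternatives and, among the fits that left out 1 library, only in the one without Low replicate 3, with log2 fold changes from -2.21 to -1.37 over these fits. Matn2 lies at chr15:34306677-34436273 on the plus strand, and 9430069I07Rik, which overlaps it on the other strand, had 0 counts.

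Matn4 encodes matrilin-4 and was low in both states. Its counts were 3, 13, 55 and 20 in SCA1-High-FAPs and 0, 0, 5 and 0 in SCA1-Low-FAPs. The states overlapped in CPM only through Low replicate 3 (1.58 CPM) and High replicate 1 (1.40 CPM). The counts pooled by state gave 9.56 CPM for the High and 0.458 CPM for the Low libraries, a ratio of 20.9. The ratio was 11.0 without High replicate 3, which held most of the High counts, and 13.6 without Low replicate 4. Without Low replicate 3, which held all the Low counts, the High level was at least 24.6-fold higher, against a floor of 3 counts over the remaining Low libraries. The gene did not pass the filter and had no place in the main fit, and the fit without a filter gave a log2 fold change of -4.23 ± 0.91 (SE). Matn2 and Matn4 had their higher levels in the same state as Comp, and Low replicate 3 was the highest Low library for Comp, Matn2 and Matn4 alike. Matn4 lies at chr2:164389393-164405160 on the minus strand, and Rbpjl, which overlaps it on the other strand, had 0 counts.

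**Figure D2:**
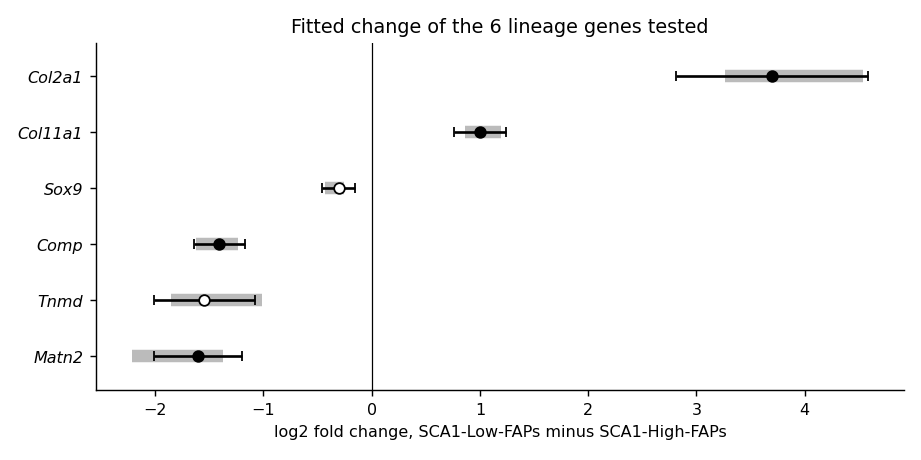
Points give the log2 fold change (SCA1-Low-FAPs minus SCA1-High-FAPs) of the 6 genes that passed the filter, filled where past the thresholds and open where not, with bars of ± 1 SE. Grey bands span the values when each library was left out in turn, and the upper end for Col2a1 is the bound against 3 counts. Col2a1 and Col11a1 lie above 0, and Sox9, Comp, Tnmd and Matn2 lie below 0 throughout.

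The tendon regulators were at the edge of detection. Scx, the early marker of tendon progenitors, had 0 counts in all 4 SCA1-High-FAPs libraries and 17, 3, 7 and 3 counts in SCA1-Low-FAPs. The states did not overlap, but Low replicate 1 held most of the counts, and 2 Low libraries were at the floor of 3 counts. The 30 counts of SCA1-Low-FAPs amounted to 2.75 CPM over the pooled libraries, at least 8.73-fold higher than a floor of 3 counts over the High libraries, and at least 4.67-fold higher without Low replicate 1. Scx did not pass the filter and had no place in the main fit, and with the High libraries at 0 its fitted value in other fits is no bound. Scx (chr15:76457452-76459458, plus strand) lies inside an intron of Bop1 (chr15:76456274-76466771), a ribosome biogenesis gene on the minus strand, and the strand setting of the counting is not given in the sources used here. Bop1 itself had 53 to 75 counts in the High libraries and 66 to 165 in the Low libraries (log2 fold change 0.43 ± 0.26 (SE), adjusted p = 0.385, edgeR). The part of Bop1 reads in the Scx counts was not tested.

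Mkx, the homeobox gene of tendon collagen production, had 2, 4, 3 and 2 counts in SCA1-High-FAPs and 7, 0, 13 and 14 in SCA1-Low-FAPs. The states overlapped, because Low replicate 2 had none. Pooled by state it stood at 1.16 and 3.12 CPM, a ratio of 2.70, and the fit without a filter gave a log2 fold change of 1.27 ± 1.10 (SE), an error of nearly the size of the change. The difference in Mkx (chr18:6934518-7004780, minus strand) was thus not larger than the spread between libraries. AC148004.2 overlaps Mkx on the same strand, so that reads in the shared stretch may not have been assigned to Mkx. Its part in the low Mkx counts was not tested.

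Tnmd, the marker of mature tendon cells, had its higher levels in SCA1-High-FAPs. Its CPM was 16.8, 45.8, 14.9 and 17.9 in SCA1-High-FAPs and 2.88, 11.9, 12.3 and 5.51 in SCA1-Low-FAPs. The ranges did not overlap, with a narrow gap between 12.3 and 14.9 CPM, and High replicate 2 stood far above the other High libraries. The log2 fold change was -1.55 ± 0.47 (SE), not past the thresholds, and -1.85 ± 0.52 (SE) and past them without Low replicate 3. Without High replicate 2 it was -1.01 ± 0.47 (SE), and without High replicate 3 it was -1.72 ± 0.48 (SE) and past the thresholds. Scx, the early tendon gene, and Tnmd, the late one, thus had their higher counts in opposite states. Tnmd lies at chrX:133850980-133865577 on the plus strand.

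The 6 fitted genes fell into 2 groups by profile over the 8 libraries, the same 2 groups as by the direction of their change. Profiles of log2 CPM were scaled to mean 0 and SD 1, and the root mean square (RMS) difference between them was taken as the measure of likeness. Sox9, Comp, Matn2 and Tnmd were 0.474 to 0.715 apart from each other, Col2a1 and Col11a1 were 0.747 apart, and pairs across these groups were 1.67 to 1.79 apart. A median tested gene was 1.34 from Col2a1 and 1.32 from Col11a1. The gene nearest to Comp was Fat4 (RMS difference 0.156), followed by Pth1r (0.172) and Psd4 (0.175). Nearest to Matn2 were Col27a1 (0.178), which encodes a fibrillar collagen of cartilage, the sodium channel gene Scn7a (0.197) and Gas1 (0.203). Nearest to Tnmd were Prkce (0.186), Txndc16 (0.256) and Scg2 (0.257), and nearest to Sox9 were Stard8 (0.218), Serf1 (0.265) and Spats2l (0.278). For Col2a1 they were Ccdc124 (0.205), Mybl1 (0.248) and Brd8 (0.253), and for Col11a1 Bud31 (0.222), Cybc1 (0.245) and Grk2 (0.252). All these distances rest on 8 libraries, and points of the same library share its depth. They also include the difference between the states, which was known when the genes were chosen. The 2 groups and the nearest genes are therefore no result apart from that difference.

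Promoter sequences from RefSeq (GRCm38.p6) were at hand for 4 of the 10 genes, Col11a1, Acan, Tnmd and Matn4. Col11a1, Tnmd and Acan are shown, because they stand for a gene higher in SCA1-Low-FAPs, a gene higher in SCA1-High-FAPs and a gene with no counts. Each sequence is the 250 bases before the RefSeq start site, read 5′ to 3′ on the strand of the gene (Col11a1 chr3:114030290-114030539, Acan chr7:79052976-79053225 and Tnmd chrX:133850758-133851007, all on the plus strand). For Acan and Tnmd this site differs from the start of the GENCODE position given above, and distances below are from the RefSeq site. Capitals mark the letters ACAAT, the core of the site bound by SOX proteins, or CANNTG, the E-box bound by basic helix-loop-helix proteins such as scleraxis, both searched on both strands.
Col11a1: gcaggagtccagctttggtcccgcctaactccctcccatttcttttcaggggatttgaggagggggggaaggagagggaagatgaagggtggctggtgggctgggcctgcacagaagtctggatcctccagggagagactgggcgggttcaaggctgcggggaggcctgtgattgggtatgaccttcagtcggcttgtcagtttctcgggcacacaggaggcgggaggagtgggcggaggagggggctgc
Acan: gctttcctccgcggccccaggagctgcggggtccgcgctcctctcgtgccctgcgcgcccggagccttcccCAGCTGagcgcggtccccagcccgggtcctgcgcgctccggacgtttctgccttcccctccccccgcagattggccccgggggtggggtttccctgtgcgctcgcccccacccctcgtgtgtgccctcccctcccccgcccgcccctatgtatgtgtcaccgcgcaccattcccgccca
Tnmd: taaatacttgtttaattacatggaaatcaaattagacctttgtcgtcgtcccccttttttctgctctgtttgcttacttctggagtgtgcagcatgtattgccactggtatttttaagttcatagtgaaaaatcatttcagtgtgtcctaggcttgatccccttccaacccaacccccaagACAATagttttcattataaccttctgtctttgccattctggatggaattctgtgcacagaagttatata
The Col11a1 window held no match to either, the Acan window held 1 E-box (CAGCTG, starting 179 bases before the start site) and the Tnmd window held 1 ACAAT (69 bases before it). Of 32851 RefSeq promoter windows of this length, 27.7% held ACAAT and 66.2% held CANNTG, so that a match or its lack is common. The Col11a1 window also held 2 GC boxes (GGGCGG) and the Acan window 3, where 32.7% of all windows held at least 1, and no window of the 3 held TATAAA, which 12.4% of all windows held. The windows differed in base composition, with 38.4% G and C in Tnmd, below all but 9.05% of windows, 62.4% in Col11a1 and 74.4% in Acan, above 95.4% of windows. The 2 windows of Matn4, from alternative start sites, had 62.8% and 54.4%.

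Around these genes, most of the cartilage programme was at or near 0. Of 36 other cartilage genes, 8 had no count in any library (Nkx3-2, Col9a1, Matn1, Snorc, Ucma, Epyc, Cytl1 and Scrg1), and 25 were too low to be tested. The partners of SOX9 were low, with Sox5 at 7.44 ± 4.10 CPM (SD, n = 4) in the High libraries and 2.13 ± 1.92 CPM in the Low ones, and Sox6 at 1.5 ± 1.42 and 1.43 ± 0.340 CPM. Among the chains of type IX collagen, which coats type II fibrils, Col9a1 was at 0, Col9a3 had 1 count in all and Col9a2 had 44 counts in SCA1-High-FAPs against 5 in SCA1-Low-FAPs. The genes of this paragraph were named after their values had been seen.

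**Figure D3:**
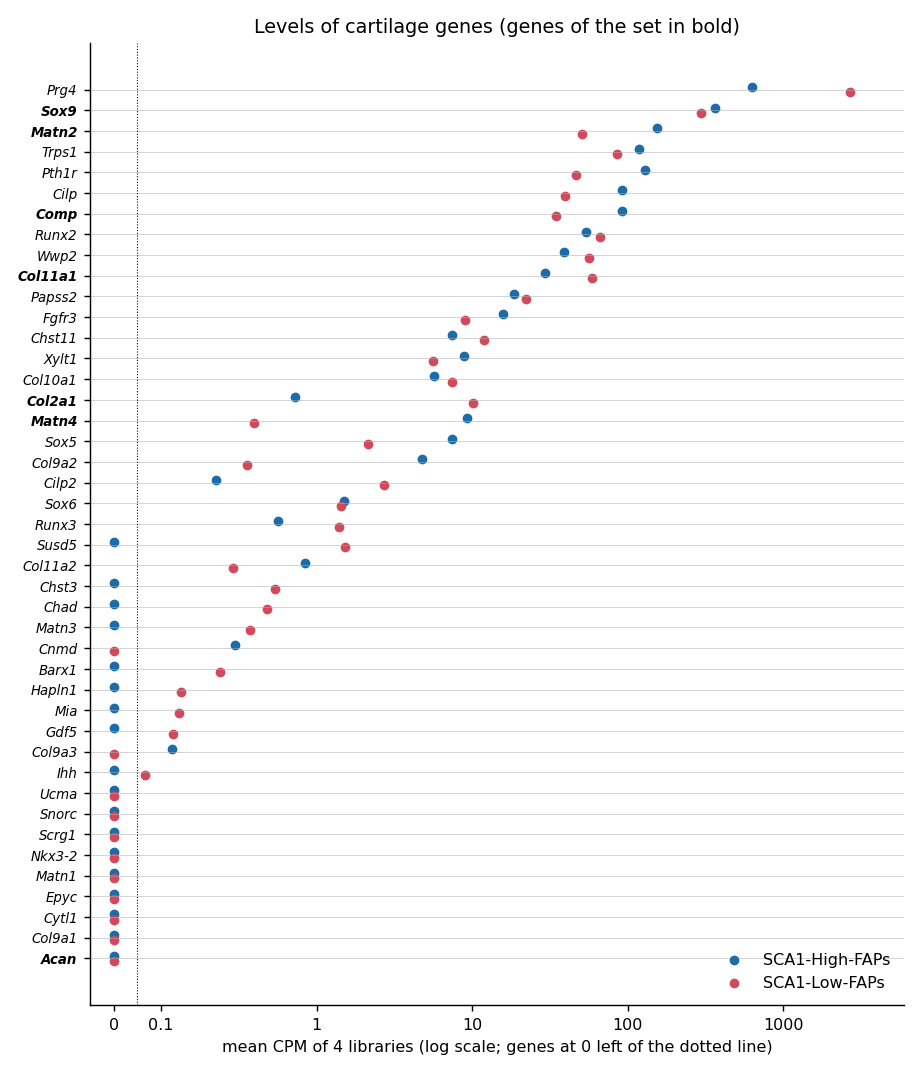
The horizontal axis gives the mean CPM of 4 libraries on a log scale, with genes at 0 set left of the dotted line, for SCA1-High-FAPs (blue) and SCA1-Low-FAPs (red), and the vertical axis lists the cartilage genes of the set (bold) and the 36 other cartilage genes by mean level. Sox9 and Prg4 stand at the top, while Acan, Matn1 and Col9a1 are at 0 in both states.

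Of the 11 other cartilage genes that were tested, 3 were past the thresholds. Of these, 1 was higher and 2 were lower in SCA1-Low-FAPs, beside 3.32% and 4.36% of all tested genes. The median log2 fold change of the list was 0.27. Prg4, which encodes lubricin, the lubricant of joint surfaces and tendon sheaths, was the most abundant of them. It stood at 331, 527, 544 and 1101 CPM in the High libraries and at 2569, 1687, 2754 and 3694 CPM in the Low libraries, with no overlap. Its log2 fold change was 2.09 ± 0.39 (SE, adjusted p = 0.0148, edgeR), and adjusted p ranged up to 0.0698 over the alternatives, where the call was lost without High replicate 3 or without Low replicate 4. Pth1r, the receptor for parathyroid hormone and its related peptide in growth plate and bone, fell in SCA1-Low-FAPs to 46.4 ± 14.7 CPM (SD, n = 4) from 130.0 ± 19.3 CPM (SD, n = 4), with a change of -1.48 ± 0.21 on the log2 scale (SE, adjusted p = 0.000672, edgeR), and its call held in all 14 alternatives (-1.75 ± 0.20 without Low replicate 3). Cilp, a matrix protein of the middle layer of cartilage, fell to 39.7 ± 19.2 from 91.9 ± 29.1 CPM (log2 fold change -1.19 ± 0.31, adjusted p = 0.0301, edgeR), and its call held in 7 of 14 alternatives. Trps1, a transcription factor of the growth plate, was among the 3 most abundant and was not past the thresholds (-0.47 ± 0.16, adjusted p = 0.0750, edgeR).

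Of 28 other tendon genes, 24 were tested and 8 were past the thresholds. Of these, 7 were lower and 1 was higher in SCA1-Low-FAPs, beside 4.36% and 3.32% of all tested genes. The list was chosen with earlier results of these data known. Its median log2 fold change was -0.47. The matrix genes Dcn (decorin, -2.08 ± 0.39 (SE), adjusted p = 0.0167, edgeR), Col14a1 (-1.35 ± 0.32) and Col3a1 (-1.03 ± 0.26) fell, as did Postn (periostin, -0.58 ± 0.16) and the protease gene Htra3 (-1.46 ± 0.35). The transcription regulator Eya2 (-1.70 ± 0.35, adjusted p = 0.00598, edgeR) fell from 25.0 ± 5.57 to 7.63 ± 2.65 CPM (SD, n = 4 each). Col12a1, a collagen of the surface of tendon fibrils, rose from 212 ± 68.6 to 374 ± 43.5 CPM (0.81 ± 0.20, adjusted p = 0.0215, edgeR). The most abundant genes of the list, Col1a2 (-0.36 ± 0.22) and Col1a1 (-0.20 ± 0.18), were not past the thresholds. Many genes of this list are expressed by fibroblasts in general. Eya2 held its call in all 14 alternatives, and the other 7 held theirs in 7 to 13 of them. The count fell to 3 without Low replicate 1 or without Low replicate 4, to 4 without High replicate 3 or Low replicate 2, and to 5 without High replicate 1 or High replicate 4.

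**Figure D4:**
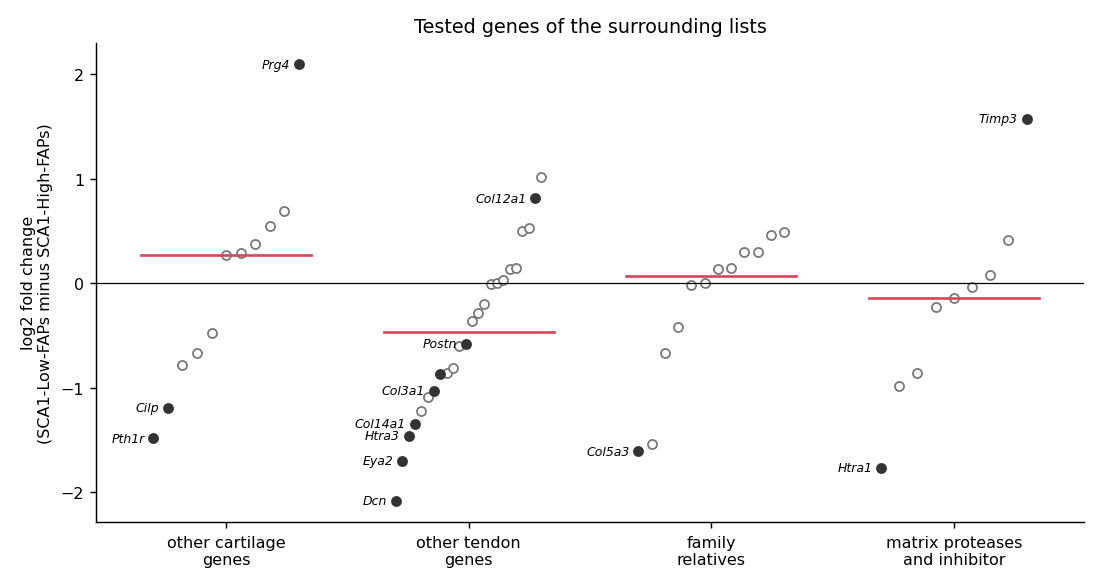
Points are the tested genes of 4 lists, with the log2 fold change (SCA1-Low-FAPs minus SCA1-High-FAPs) on the vertical axis, filled where past the thresholds (all but 1 named) and open where not, and red lines are the medians of the lists. Prg4, Timp3 and Col12a1 lie above 0 among the named genes, and the other named genes lie below.

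Among relatives of the 10 genes, 12 of 25 were tested, 1 was past the thresholds and the median log2 fold change was 0.07. The chains of type V collagen, the partner of type XI chains outside cartilage, were much more abundant than Col11a1, with Col5a2 at 1047 ± 333 CPM in the High and 1047 ± 291 CPM in the Low libraries (SD, n = 4, log2 fold change -0.0003 ± 0.25). Col5a3 alone among the relatives was past the thresholds, and it fell from 293 ± 88.4 to 96.1 ± 16.7 CPM (-1.61 ± 0.20, adjusted p = 0.000394, edgeR), the opposite direction to Col11a1. The abundant relatives of Comp and Acan did not pass, with Thbs1 (thrombospondin-1) at 0.46 ± 0.22 and Vcan (versican) at 0.30 ± 0.17. Of 12 proteases of cartilage matrix and their inhibitor, 9 were tested and 2 were past the thresholds, with a median of -0.14. Timp3, the inhibitor of aggrecan-cleaving proteases, rose from 589 ± 215 to 1756 ± 439 CPM (1.57 ± 0.29, adjusted p = 0.00878, edgeR) and Htra1 fell from 45.5 ± 25.8 to 13.6 ± 3.82 CPM (-1.76 ± 0.38, adjusted p = 0.00853, edgeR), while the abundant Adamts5 (-0.14 ± 0.15) and Mmp14 (0.41 ± 0.18) were not past the thresholds. The calls of Col5a3, Timp3 and Htra1 held in all 14 alternatives. Lists were described by these counts and medians only, beside the 7.68% of all tested genes past the thresholds.

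Markers of other cell types also moved with the states. The 5 adipocyte markers, all with counts, summed to 943 to 4466 CPM in the High libraries and to 115 to 594 CPM in the Low ones, with Low replicate 3 the highest Low library. The 6 mural cell markers, all with counts, summed to 469 to 1462 CPM in the High libraries and 1955 to 2975 CPM in the Low ones, and the 8 cycling cell markers, all with counts, to 534 to 735 and 997 to 1514 CPM, with Low replicate 3 the lowest Low library in both. Most of the mural sum was Acta2, which myofibroblasts also express (940 ± 423 and 2483 ± 432 CPM, SD, n = 4). Within that list Acta2, Myh11 and Cspg4 rose in SCA1-Low-FAPs and Notch3 fell (log2 fold change -1.54 ± 0.46 (SE), adjusted p = 0.0487, edgeR), while Rgs5 (3.26 and 1.89 CPM) and Mcam (5.54 and 2.45 CPM) were too low to be tested. The 6 bone-forming cell markers overlapped between the states in their sum (309 to 417 and 163 to 320 CPM), with Dmp1 at 0, although Alpl, the largest part of it, was lower in SCA1-Low-FAPs without overlap (-0.94 ± 0.26 (SE), adjusted p = 0.0441, edgeR). The 8 leucocyte markers summed to 25.2 to 47.7 and 12.5 to 19.2 CPM with 4 of 8 at 0, and the 6 Schwann and glial markers to 10.6 to 19.9 and 7.58 to 10.6 CPM with 2 of 6 at 0. Lyz2, the only leucocyte marker tested, fell from 28.5 ± 8.95 to 10.5 ± 3.66 CPM in SCA1-Low-FAPs (-1.42 ± 0.34 (SE), adjusted p = 0.0153, edgeR). Among the leucocyte markers too low to be tested, Cd68 went with Lyz2 (2.86 and 0.475 CPM, no overlap) and Csf1r ran the other way (3.30 and 5.45 CPM). Ptprc had 1 count in all. Of the glial markers only S100b was tested, and it was not past the thresholds (-0.86 ± 0.44 (SE), adjusted p = 0.280, edgeR). The myogenic markers (4 of 8 at 0) summed to 0 to 6.55 CPM in the High and 0 to 15.2 CPM in the Low libraries, with the top value in Low replicate 2. The endothelial markers (2 of 6 at 0) summed to 1.46 to 7.05 and 0.481 to 7.35 CPM. The part of all these markers in the differences of the cartilage and tendon genes was not tested.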

How the data were processed

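The 8 libraries were made from FAPs of mdx mice with a QuantSeq 3′ mRNA FWD kit. After trimming, the authors aligned reads to mm10 with STAR, assigned them to Ensembl genes with htseq-count, and deposited raw counts per gene. Molecular identifiers are not mentioned, and the strand setting is not given in the sources used here. Reads on no gene feature (13.3% to 16.4%) and the other htseq-count entries that name no gene were left out of library sizes. Identifiers were matched to symbols for 30934 of 31053 genes, and positions are those of GENCODE M21.

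The cell states were compared in edgeR 4.0.16 (R 4.3.3) with its quasi-likelihood test in robust form, TMM scaling, filterByExpr (at least 10 counts in enough libraries, 15 in total) and Benjamini-Hochberg adjustment over 10181 genes. SEs are derived from the same fit. Thresholds were adjusted p under 0.05 and log2 fold change beyond 0.5. P-values set the difference between the states against the spread between these libraries. The 14 alternatives were DESeq2 1.42.0, RLE factors, 2 other filters, a fit that was not robust, the replicate number as a block, and each library left out. The tests were checked on simulated data. Figures were drawn with matplotlib 3.10.9.

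The genes, lists and tests were chosen with earlier results of these data known. Named besides the 10 genes are, of each surrounding list, the genes past the thresholds and the 3 most abundant, and for each tested gene the 3 nearest profiles. One of the tendon genes counted as past the thresholds is not reported here by name.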

Additional observations from a re-analysis of the deposited data

Results flagged for a closer look

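Within a group of 4 libraries, 1 library stood apart from the other 3 by more than Dixon's 95% critical value for 7 of the 61 groups of values examined, where chance alone flags about 1 in 20. In 2 of the 7 (Col2a1 and Matn4) the other 3 libraries were at 0, so the gap equals the range by construction and that rate does not apply. In SCA1-Low-FAPs, replicate 3 was the high library for Sox9 (364 CPM, the others 268 to 276), Comp (47.9 CPM, the others 29.3 to 31.2), Matn4 (1.58 CPM, the others at 0) and Pth1r (68.4 CPM, the others 38.1 to 39.5). In each of these cases it lay towards the levels of SCA1-High-FAPs. In SCA1-High-FAPs, replicate 3 was the only library with Col2a1 (2.90 CPM from 7 counts) and replicate 2 was the high library for Tnmd (45.8 CPM, the others 14.9 to 17.9). Low replicate 2 was the high Low library for Thbs1 (1479 CPM, the others 1171 to 1193). Why these libraries stood apart was not tested.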

How the results depend on the processing

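The log2 fold changes of the 6 tested genes kept their direction under all 14 alternatives run (13 for Col2a1 and Tnmd, which did not reach 10 counts in every library), and no change of scaling moved a level by more than 1 SD. DESeq2 put 7 of the 10 genes past the thresholds instead of 4, adding Matn4, Scx and Tnmd, and edgeR without a filter put 6 past them, adding the same 3 genes and losing Matn2. With each library left out in turn, the count of the 10 genes ran from 1 to 6 (1 without Low replicate 1 and 2 without Low replicate 4), that of the other cartilage genes from 1 to 3 (1 without Low replicate 4) and that of the other tendon genes from 3 to 9. Over all genes, 159 to 434 were higher in SCA1-Low-FAPs, beside 338 with all libraries (159 without Low replicate 1, 223 without Low replicate 2 and 164 without Low replicate 4), and 246 to 583 were higher in SCA1-High-FAPs, beside 444 (258 without Low replicate 1 and 246 without Low replicate 4). The upper ends, 434, 583 and 6 of the 10 genes, came without Low replicate 3, and the cause was not tested. Libraries with equal replicate numbers were close to uncorrelated in their deviations from the state means (from -0.0237 to 0.0181), and no library correlated best with its own number. This cannot show whether equal numbers mark the same mouse. The main fit took the 8 libraries as independent, although 4 mice were used according to the series description. Deviations within a state cancel, so that some partner always comes out best. Each library correlated best with another number: High 1 with Low 2 (0.157), High 2 with Low 1 (0.126), High 3 with Low 4 (0.239) and High 4 with Low 3 (0.134). Whether these share a mouse was not tested, and no fit used such a pairing. In the fit with a replicate block, 277 genes were higher in SCA1-Low-FAPs and 420 in SCA1-High-FAPs, and 5 of the 10 genes were past the thresholds, Tnmd being added, while Cilp and Postn were no longer past them. Of 308 values of the 22 named genes of the surrounding lists, 271 kept their side of the thresholds, 37 lost it and none reversed while past them. Acan, Scx, Mkx and Matn4 had at most 96 counts each over the 8 libraries and were outside the main fit.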
